A study of Mus musculus with 10 samples.

Results

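The epicardium of the embryonic mouse heart was compared between E17.5 and E11.5, gene by gene, in open chromatin. All 20807 protein-coding genes annotated on chromosomes 1 to 19 were taken, and 6 of the 10 samples of the series entered the comparison, 3 at each stage. Epicardial cells were sorted as live CD31- tdTomato+ PDPN+ cells from whole hearts of Rosa26tdTomato;Wt1CreERT2/+ embryos labelled C57BL/6J. Tamoxifen was given at E9.5, so that a Cre expressed from Wt1 switched on the red reporter in Wt1-expressing cells and all their descendants, and every embryo of both stages carried 1 copy of this Cre allele. Hearts of littermates were pooled, 6 for each E11.5 sample and 4 for each E17.5 sample, and the replicates of a stage were separate pools. Stage and library cannot be told apart from any difference in handling between the days, and in such bulk samples fewer cells of a type and less signal per cell cannot be told apart. Lists from epicardium-derived cells (EPDCs, CD31- tdTomato+ PDPN-) of the same mouse line, 1 at E12.5 and 2 at E13.5, served for comparison. E13.5 list 2 was merged from technical replicates of 1 sample.

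The epicardium is the mesothelial sheet that covers the heart. Early in development some of its cells undergo an epithelial-to-mesenchymal transition, enter the heart muscle and give rise to fibroblasts and mural cells of the coronary vessels, and later the sheet settles into a quiet covering layer. The assay for transposase-accessible chromatin (ATAC-seq) cuts DNA where it is free of nucleosomes. Stretches with many cuts are called as peaks, and these lie at active promoters and at distal regulatory elements. Promoters rich in CpG dinucleotides are open in most cell types, whereas CpG-poor promoters are more often open in particular ones.

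For each gene and library, 3 measures were taken from the called peaks. A promoter was counted as open where a peak touched the 1 kb to either side of a start of a protein-coding transcript. Its strength was given as a rank percentile among all peaks of that library, with 0 for no peak and values near 100 for the strongest. The neighbourhood of a gene was described by the number of peak summits, the points of highest signal, from 25 kb before to 25 kb after the gene body. A promoter whose peak was called in all 3 libraries of E17.5 and in none of E11.5 is called gained, and the reverse lost.

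Stretches of 160 bases stand for the promoters on which the comparison turned, read from the mm10 genome (GRCm38.p6, RefSeq) on the strand of the gene. None overlapped an annotated exon. Capitals mark matches in either orientation to the half-site of nuclear factor I (NFI, TTGGCA), to the C/EBP motif (TTGCNNAA) and to the AP-1 motif (TGACTCA or TGAGTCA). The first 4 belong to promoters gained at E17.5: Msln at chr17:25754379-25754538 (minus strand), Anxa8 at chr14:34085821-34085980 (plus strand), Serpinb5 at chr1:106861013-106861172 (plus strand) and Adgrf3 at chr5:30206413-30206572 (minus strand).
Msln: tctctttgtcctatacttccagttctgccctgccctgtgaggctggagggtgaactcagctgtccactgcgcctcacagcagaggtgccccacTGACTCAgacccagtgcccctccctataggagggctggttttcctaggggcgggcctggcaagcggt
Anxa8: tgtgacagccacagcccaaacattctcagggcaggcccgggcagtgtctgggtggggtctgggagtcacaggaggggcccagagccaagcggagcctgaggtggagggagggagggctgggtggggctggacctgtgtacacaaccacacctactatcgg
Serpinb5: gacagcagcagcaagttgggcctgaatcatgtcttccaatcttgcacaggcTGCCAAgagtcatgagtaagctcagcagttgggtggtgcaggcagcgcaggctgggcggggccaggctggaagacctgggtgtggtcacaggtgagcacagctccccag
Adgrf3: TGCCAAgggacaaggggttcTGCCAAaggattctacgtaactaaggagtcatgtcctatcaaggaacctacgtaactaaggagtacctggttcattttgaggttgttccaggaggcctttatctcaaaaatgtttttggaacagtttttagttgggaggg

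The next pair was open weakly or in 1 library at E11.5 and strongly at E17.5: Xdh at chr17:73950265-73950424 (minus strand) and Krt5 at chr15:101713828-101713987 (minus strand).
Xdh: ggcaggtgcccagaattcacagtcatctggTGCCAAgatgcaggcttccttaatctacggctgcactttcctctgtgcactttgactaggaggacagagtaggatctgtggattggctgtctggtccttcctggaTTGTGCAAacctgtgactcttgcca
Krt5: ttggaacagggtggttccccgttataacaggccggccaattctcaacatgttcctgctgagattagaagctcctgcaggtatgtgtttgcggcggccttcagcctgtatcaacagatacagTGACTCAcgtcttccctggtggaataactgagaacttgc

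The Krt5 stretch is centred at position -1010 bp from the start. The last 4 belong to promoters lost by E17.5, that of Lyg2 from a peak whose summit lies at -1326 bp from the start, outside the window: Lyg2 at chr1:37917739-37917898 (minus strand), Dpp6 at chr5:26904535-26904694 (plus strand), Rimbp2 at chr5:128953487-128953646 (minus strand) and Bmp10 at chr6:87428485-87428644 (plus strand).
Lyg2: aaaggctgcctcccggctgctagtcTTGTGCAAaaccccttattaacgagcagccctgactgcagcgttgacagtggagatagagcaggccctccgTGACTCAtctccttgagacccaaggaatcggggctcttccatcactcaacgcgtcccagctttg
Dpp6: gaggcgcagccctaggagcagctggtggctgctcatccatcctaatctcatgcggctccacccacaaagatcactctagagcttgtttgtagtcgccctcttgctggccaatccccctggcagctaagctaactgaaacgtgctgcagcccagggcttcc
Rimbp2: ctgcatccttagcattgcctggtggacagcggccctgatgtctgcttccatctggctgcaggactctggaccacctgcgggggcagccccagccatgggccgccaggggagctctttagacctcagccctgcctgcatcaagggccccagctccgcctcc
Bmp10: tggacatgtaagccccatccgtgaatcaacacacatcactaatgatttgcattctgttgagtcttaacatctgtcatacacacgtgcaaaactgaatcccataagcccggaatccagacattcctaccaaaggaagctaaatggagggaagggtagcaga

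The E11.5 libraries held 95028 to 106836 peaks and the E17.5 libraries 73606 to 91550. The mean was 102010 ± 6190 for the younger and 82071 ± 9010 for the older stage (SD, n = 3 each), and the exact permutation test gave p = 0.1, the smallest that 3 against 3 libraries allow. Genes with an open promoter numbered 14615 to 14719 in the E11.5 and 14124 to 14465 in the E17.5 libraries (exact permutation p = 0.1). A larger share of the E17.5 summits lay in promoters, 22.6% ± 1.64 against 18.7% ± 0.577 (SD, n = 3 each, exact p = 0.1). The lists hold no read totals, so depth is unknown. The background solved from fold enrichment and p was 2.07 fragments in E17.5 replicate 1, the library with the fewest peaks, and 3.25 to 4.11 in the other 5.

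All 12 epicardial marker genes had an open promoter in all 6 libraries. The list of cardiomyocyte markers had 12 to 13 of its 17 promoters open at E17.5 and 14 to 15 at E11.5, with Tnnc1 and Myh6 closed throughout. Among 14 endothelial markers, 11 promoters were open in every library and those of Cdh5, Tie1 and Emcn in none. Among 14 blood and leukocyte markers, 6 to 7 promoters were open at E11.5 and 5 at E17.5, and those of Ptprc, Spi1 and Tyrobp were closed in all 6 libraries.

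Promoters changed little as open or closed. All 6 libraries called 13895 of the 20807 promoters (66.8%), and none called 5749 (27.6%). At E17.5, 77 promoters were gained, or 0.37% of all genes, and 260 were lost, or 1.25%. The gained promoters took up 76 separate places and the lost promoters 256, since neighbouring genes can share one. Most of these peaks were weak. The median percentile was 42.4 over the gained and 34.5 over the lost promoters, whereas promoters open in all 6 libraries had medians of 91.5 (E11.5) and 90.5 (E17.5). A percentile of at least 50 was reached by 27 gained promoters (35.1%) and 55 lost ones (21.2%). The strongest summit lay more than 1 kb from the start for 7 gained (9.09%) and 41 lost promoters (15.8%). When a summit had to lie inside the window, 72 of the gained and 227 of the lost promoters kept their call. With the same number of strongest summits taken from every library, 134 promoters were gained and 196 lost. Without E17.5 replicate 1, 125 were gained.

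The promoter of Msln, which encodes the mesothelial surface protein mesothelin, was closed in all 3 E11.5 libraries and stood at percentiles of 74.1, 85.8 and 75.4 at E17.5. Its summit lay 42 bp before the start. Anxa8, an annexin that binds phospholipids when calcium is present, likewise went from closed to 68.7, 67.9 and 67.5. For both genes a window of 2 kb instead of 1 kb took in a peak of at least 1 E11.5 library. Mslnl, a neighbour of Msln that encodes a mesothelin-like protein, was open at 53.4, 53.1 and 55.0 at E17.5 alone. These 3 promoters were closed in all 3 EPDC lists too.

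Genes of epithelia, receptors and enzymes were among the other strong gained promoters. The promoter of Serpinb5, a serpin of epithelial cells also named maspin, reached 71.9, 79.2 and 75.9 at E17.5. Adgrf3, an adhesion G protein-coupled receptor, reached 74.1, 76.0 and 77.7. Mrgprf, an orphan receptor of the same superfamily, reached 75.1, 70.3 and 64.7. None of these was open in an E11.5 library, and the E17.5 libraries lay close together. Mvp, the major vault protein, reached 57.3, 68.8 and 63.6, and Rnase10, of the ribonuclease A family, 68.7, 71.8 and 72.8. Cytip, which binds cytohesins in leukocytes, reached 54.9, 62.8 and 70.6. The strongest gained peaks were those of Sdhaf1, an assembly factor of succinate dehydrogenase, at 96.9, 96.6 and 95.2, and of Padi3, an enzyme that converts arginine to citrulline, at 90.1, 89.7 and 87.8. The strongest summit lay past the window for both, 1469 and 1363 bp from the start, as for Tmem102 at 1655 bp and Cpa4, a carboxypeptidase, at 1832 bp. Padi3 and Cpa4 lost their call when a summit had to lie inside the window, and Sdhaf1 and Tmem102 kept it. With a window of 2 kb the calls of Sdhaf1, Padi3, Mrgprf, Tmem102, Mvp and Cpa4 were lost, and that of Cytip was lost with a narrower window and with only the 5 prime end of the gene taken as its start. Cpa4 also varied most among the strongest 12, with 33.8, 81.3 and 73.3.

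Among the weaker gained promoters, the following were picked out after their values had been seen. Some serve connective tissue. In the lists for such genes, 0 of 24 collagens, 0 of 30 basement membrane and integrin genes and 0 of 25 matrix proteases and inhibitors were gained. Of 14 fibroblast markers 1 was gained, Postn, beside 0.37% over all genes. The promoter of Postn, the matrix protein periostin, stood at 40.8, 45.1 and 39.1 at E17.5, with its summit 6 bp before the start. Fap, a fibroblast protease, stood at 46.4, 17.2 and 21.5, and Aspn, the small proteoglycan asporin, at 23.9, 25.5 and 12.2. All 3 were open in all 3 EPDC lists. Clec3b, the lectin tetranectin, stood at 2.18, 29.7 and 30.5, so that 1 library barely called it. Immune genes among them were Il18bp, a secreted decoy for interleukin 18, at 47.4, 54.2 and 54.2, Il1rl1, the receptor of interleukin 33, at 29.9, 52.7 and 39.0, and Dhx58, a sensor of viral RNA, at 45.4, 56.0 and 35.7. In the lists, 0 of 22 genes of antigen presentation and interferon response and 3 of 81 C-type lectin and chemokine genes were gained. The neighbours Selp and Sele, which encode the selectins of activated endothelium, were gained as well, Selp at 42.4, 42.6 and 42.1 and Sele at 29.9, 36.2 and 14.6. The endothelial marker promoters given above were open at 11 of 14 in every library, 3 of 11 of their scores were lower and 0 higher under both scalings, and their part in the selectin result was not tested.

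**Figure D1:**
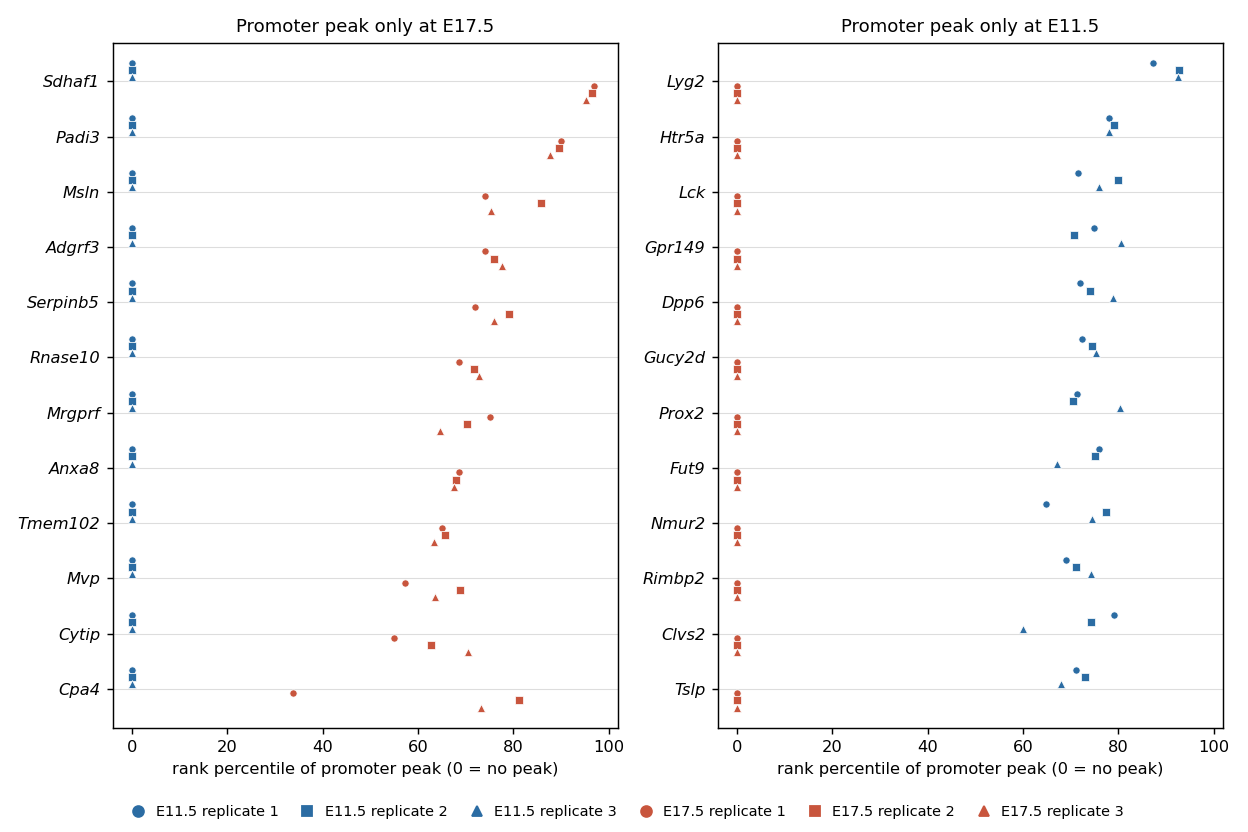
Rank percentile of the promoter peak (horizontal axis, 0 = no peak) in each of the 6 libraries for the 12 named gained and the 12 named lost promoters; each point is 1 library, blue for E11.5 and red for E17.5. The named gained promoters span 33.8 to 96.9 at E17.5 and the lost ones reach up to 92.8 at E11.5, with 0 in every library of the other stage.

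The 12 strongest lost promoters belonged to genes of several kinds. The promoter of Dpp6, an auxiliary subunit of neuronal potassium channels, stood at 72.0, 74.0 and 78.9 at E11.5 and was closed at E17.5. Rimbp2, a scaffold of the presynaptic zone, went from 69.1, 71.1 and 74.3 to closed. Htr5a, a serotonin receptor, went from 78.0, 79.1 and 78.1 to closed, and Nmur2, a receptor of neuromedin U, from 64.8, 77.4 and 74.4. The same was seen at Gpr149, an orphan receptor (74.8, 70.8 and 80.6), Gucy2d, a membrane guanylate cyclase (72.3, 74.5 and 75.4) and Fut9, a fucosyltransferase (75.9, 75.2 and 67.1). Clvs2 was likewise open in all 3 E11.5 libraries and in none at E17.5. Prox2, a homeobox factor, was at 71.3, 70.4 and 80.4 at E11.5, Lck, a tyrosine kinase of T cells, at 71.5, 79.9 and 76.0, and Tslp, a cytokine of epithelia, at 71.2, 73.1 and 67.9. The strongest lost peak, at Lyg2, a lysozyme, was at 87.2, 92.8 and 92.5. For Lyg2, Lck, Gpr149 and Tslp no call remained when the summit itself had to lie within the window, or with a narrower window or one of 2 kb. The calls of Lck and Prox2 were lost with only the 5 prime end of the gene taken as its start.

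Of the lists of signalling and early development, BMP (28 genes), FGF (22), Hedgehog (15) and Hox (39) had 1 lost promoter each, and the Wnt, Notch, TGF-beta and cardiac progenitor lists had 0, beside 1.25% over all genes. The promoter of Bmp10, a bone morphogenetic protein of the embryonic heart, stood at 65.1, 71.6 and 66.0 at E11.5. Lefty2, an inhibitor of Nodal signalling, stood at 58.6, 68.1 and 67.9, from a peak whose strongest summit lay 1433 bp from the start, outside the window. Fgf7, a fibroblast growth factor made by mesenchyme, stood at 39.8, 29.7 and 36.5. All 3 were closed in every E17.5 library. Lower in rank were Shh, the ligand sonic hedgehog (25.4, 14.1 and 20.3), and Hoxb8, a positional homeobox factor (12.3, 19.1 and 27.7). Lefty2 and the genes of the next sentences were picked out after their values had been seen. Some master factors of other organs were among the weak lost promoters, with Pax8 at 41.5, 53.2 and 22.5, Myod1 at 43.7, 45.6 and 41.0, and Pdx1 at 15.5, 23.5 and 23.2. The strongest summit of Pdx1 lay at -1058 bp from the start, outside the window. In the lists of such factors, 0 of 18 Sox and 1 of 41 forkhead promoters were lost, beside 1.25% over all genes. Sarcomere genes were among the weak lost promoters too, with Actc1 at 32.3, 48.8 and 41.2, Mybpc3 at 32.2, 36.0 and 47.7, and Myl2 at 25.6, 16.7 and 3.92. The summed scaled summits of the 17 cardiomyocyte markers moved the same way, from 190 to 196 per library at E11.5 to 162 to 174 at E17.5, and their part in the loss at sarcomere genes was not tested. Of the promoters on that list 1 was lost, and 4 of 14 promoter scores were higher and 2 lower under both scalings.

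The EPDC lists, which had no part in choosing these promoters, placed gained and lost ones differently. Of the 77 gained promoters, 50 (64.9%) were open in no EPDC list and 15 (19.5%) in all 3. Of the 260 lost promoters, 69 (26.5%) were open in none and 101 (38.8%) in all 3. The EPDC lists were not alike. E13.5 list 2, the merged one, had a background of 10.89 fragments, against 4.25 in E13.5 list 1 and 4.19 at E12.5. It called 177 lost and 26 gained promoters, against 121 and 20 in E13.5 list 1 and 131 and 16 at E12.5. As a scale, 98.5% of the promoters open in all 6 epicardial libraries were open in all 3 EPDC lists, and 91.5% of those open in no epicardial library were open in no EPDC list. EPDCs were taken at E12.5 and E13.5, closer to E11.5 than to E17.5, so the cell type and the day cannot be told apart here.

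Gained and lost promoters were mostly low in CpG, a feature that their choice had not used. In the 501 bp around the summit, the ratio of observed to expected CpG had a median of 0.232 over the gained and 0.329 over the lost promoters, against 0.782 over those open in all 6 libraries. A ratio under 0.6, here called CpG-poor, was found in 73 of 77 gained (94.8%), 204 of 260 lost (78.5%) and 21.2% of the constantly open promoters. Over all promoters with a peak in any library, 3917 of 15058 were CpG-poor (26.0%). The 826 promoters called in 1 to 5 libraries in another pattern were not counted apart, so low CpG cannot be tied to gain or loss. Summits lay within 200 bp of a start in 44.2% of the gained, 42.7% of the lost and 77.2% of the constantly open promoters.

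Motif letters were then counted on both strands of the same 501 bp windows. The NFI half-site TTGGCA occurred in 37 of 77 gained promoters (48.1%), 19.6% of the lost and 23.6% of the 2946 constantly open promoters that were CpG-poor. The C/EBP motif TTGCNNAA occurred in 28.6% of the gained, 14.6% of the lost and 16.1% of these CpG-poor promoters. For the AP-1 motif the shares were 20.8%, 9.62% and 12.6%. The interferon response motif (11.7% gained, 4.62% lost), the CRE motif TGACGTCA (5.19% and 0.769%) and the T-box motif AGGTGTGA (3.9% and 0.769%) were also more frequent at gained promoters, the last 2 on 4 and 3 promoters. The GATA motif AGATAA (24.7% gained, 20.8% lost) and the TEAD motif GGAATG (27.3% and 25.4%) differed less. The ETS motif CCGGAAG and the KLF and SP motif GGGCGGGG were rarer at the gained promoters (3.90% and 5.19%) than at the CpG-poor constantly open ones (9.27% and 23.0%) and at all constantly open ones (21.9% and 41.2%). A homeodomain motif, TAATTA, was found in 11.7% of gained and 4.62% of lost promoters. Such matches describe the letters and are not evidence that a factor was bound.

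**Figure D2:**
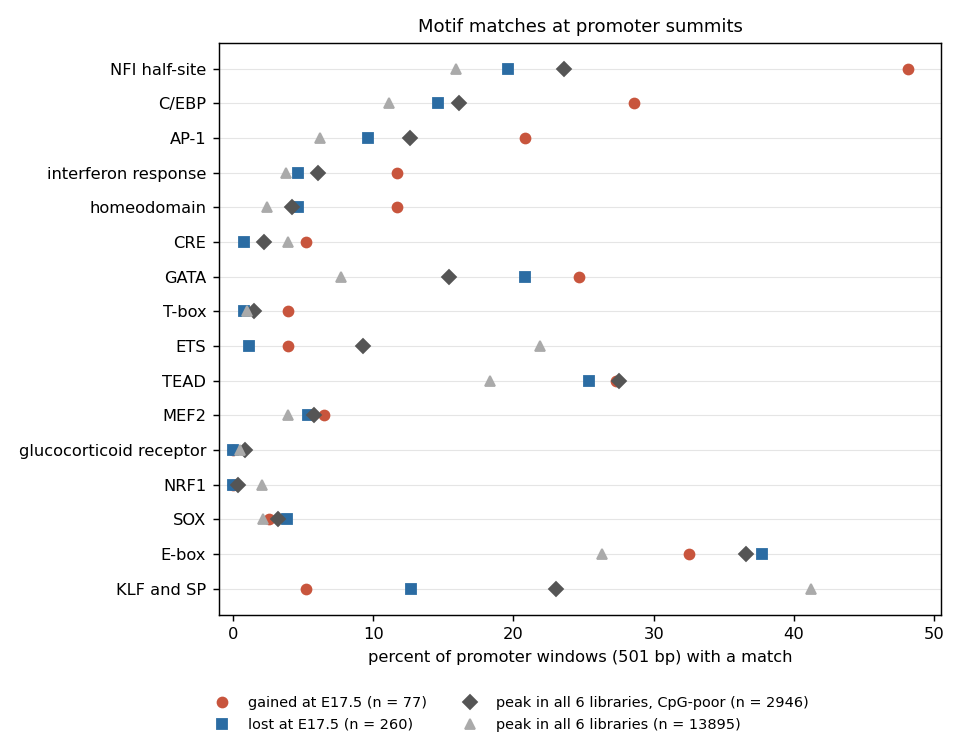
Percent of promoter windows of 501 bp with a match to each motif (horizontal axis) for gained promoters (red circles, n = 77), lost promoters (blue squares, n = 260), promoters open in all 6 libraries (light triangles) and the CpG-poor ones among these (dark diamonds). The NFI half-site stands apart at the gained promoters with 48.1%, against 19.6% at the lost ones.

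Summit numbers around genes were compared for the 15354 genes with a mean of at least 3, after each library was scaled by its total. By limma with Benjamini-Hochberg adjustment, 3852 genes (25.1%) had more summits at E17.5 and 1471 (9.58%) had fewer at an adjusted p under 0.05. The median log2 difference over all tested genes was 0.17, and differences below are best read relative to it. A larger share of the E17.5 summits lay in a gene window (81.1% ± 0.265 against 77.6% ± 0.404, SD, n = 3 each, exact permutation p = 0.1). Under quantile normalization, which removes such a shift, 1737 genes had more and 1882 fewer. Without any scaling 198 genes had more and 1062 fewer, with a median of -0.11. Calls are therefore given below where both scalings made them. Those were 1737 genes with more summits (11.3%), in 991 separate windows, and 1427 with fewer (9.29%), in 1129 windows. Summits of neighbouring genes are often the same summits.

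Among genes with a scaled mean of at least 6 summits at E17.5 (the counts printed are unscaled), Adgrf3 had the largest gain, with 0, 1 and 1 summits in the E11.5 libraries against 3, 6 and 9 (log2 difference 2.81, SE 0.35, adjusted p = 7.9e-08). Its promoter was gained too. Trem2, a receptor of macrophages, had 2, 2 and 1 summits against 5, 7 and 8 (log2 2.02). Sntb2, a syntrophin that anchors membrane proteins to the cytoskeleton, had 11, 8 and 8 against 23, 34 and 25 (log2 1.83, SE 0.14, adjusted p = 1.77e-12). All 3 were among the 12 genes picked for the largest gains without overlap between stages. Fbxo45, of a ubiquitin ligase, had 1, 2 and 2 against 6, 6 and 5, and Tbce, which folds tubulin, 5, 5 and 6 against 11, 21 and 18. Abcb11, the bile salt export pump, had 2, 3 and 2 against 7, 8 and 7, with its promoter closed in all 6 libraries. Inpp1, an inositol phosphatase, and Stk35, a kinase, held their windows alone, at 2, 3 and 3 against 7, 9 and 7 and at 4, 4 and 3 against 9, 10 and 9. The window of Nudt6 (3, 5 and 3 against 9, 9 and 10) takes in Fgf2, and that of Them6 (3, 6 and 3 against 7, 11 and 12) takes in Psca, Slurp1 and Lynx1. The call of Nudt6 was lost with a flank of 10 kb (log2 0.40, adjusted p = 0.185) and that of Them6 without scaling (log2 1.25, adjusted p = 0.0615). The gain at Ctla4, an inhibitory receptor of T cells (2, 3 and 1 against 6, 5 and 5), did not hold when peak scores were summed in place of summits, at a log2 difference of -0.10, and its call was also lost without scaling (log2 1.30).

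The 12 genes with the largest losses of summits follow. Piwil1, of the germ line, had 9, 11 and 10 summits at E11.5 and 0 in each E17.5 library, in a window that holds part of Rimbp2 (11, 14 and 12 against 1, 1 and 2, log2 -2.56). Morc1, also of the germ line, had 5, 11 and 7 against 0 in each. Chat, the enzyme that makes acetylcholine, had 6, 7 and 8 against 0, 0 and 1. Here E17.5 kept almost no summit. Pou4f3, a factor of hair cells in the ear, had 6, 10 and 7 against 0, 1 and 2, and Ush1c, a hair cell scaffold, 5, 7 and 9 against 1, 0 and 0. Skor2, a corepressor of the cerebellum, had 5, 8 and 7 against 0, 1 and 0, and Ofcc1 6, 12 and 10 against 0, 1 and 0. Spock1, a secreted proteoglycan, fell from 16, 23 and 21 to 2, 3 and 2 (log2 -2.58, SE 0.17, adjusted p = 2.17e-14). Ion channel genes were Kcnmb2 (10, 10 and 7 against 1, 1 and 1), Gabrg3 (8, 15 and 14 against 2, 2 and 1) and Fam155a (20, 24 and 25 against 4, 3 and 4). The promoter of Kcnmb2 went the other way, from percentiles of 67.3, 69.6 and 75.3 to 79.6, 83.2 and 78.8 (log2 score 0.83). Igsf11, an adhesion protein, had 14, 18 and 17 against 3, 2 and 2, while its promoter kept percentiles of 89.3, 91.1 and 87.4 against 89.3, 91.1 and 92.4.

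**Figure D3:**
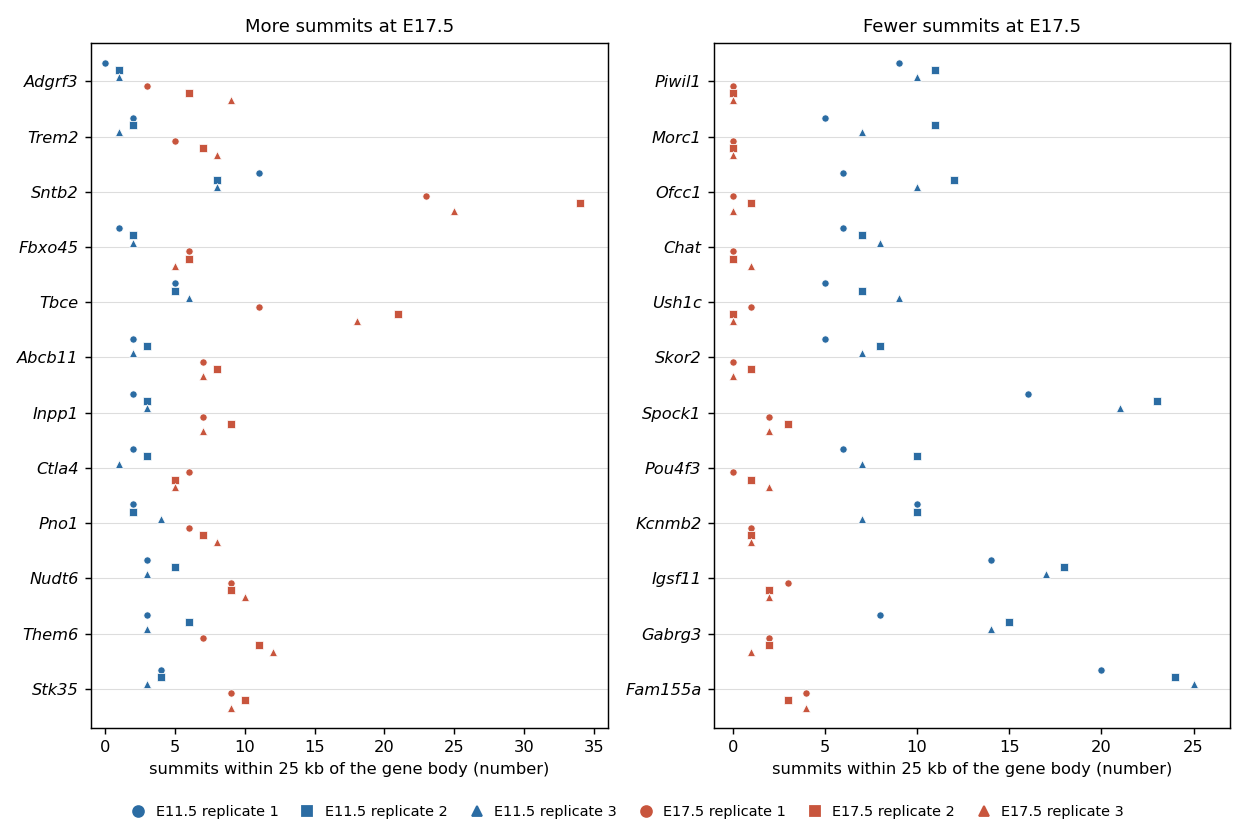
Number of summits from 25 kb before to 25 kb after the gene body (horizontal axis) in each of the 6 libraries for the 12 named genes with more and the 12 with fewer summits at E17.5; each point is 1 library, blue for E11.5 and red for E17.5. Genes were picked so that the stages do not overlap, and Piwil1 and Morc1 are at 0 in all 3 E17.5 libraries.

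Losses went with the length of the gene. Among the 4198 tested genes of up to 10 kb, 5.31% had fewer summits, and among the 1723 genes of 100 to 300 kb 20.9% did. Above 300 kb it was 238 of 515 genes (46.2%). The share with more summits was 11.6%, 11.1% and 8.35% in the same classes, and by scaling to library totals alone 25.8%, 22.4% and 12.8%. The median log2 difference went from 0.22 in the shortest to -0.29 in the longest class. Long genes have wider windows and more summits, and the part of window width in these shares was not tested.

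**Figure D4:**
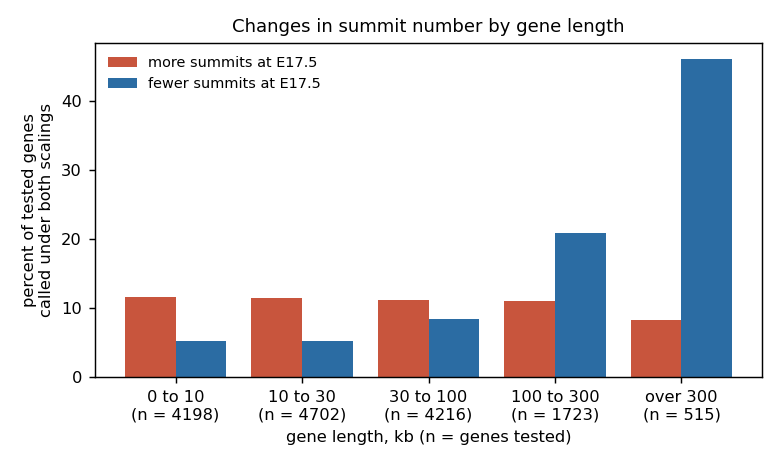
Percent of tested genes with more (red) or fewer (blue) summits at E17.5 under both scalings, by length of the gene in kb (horizontal axis, 5 classes). The share with fewer summits goes from 5.31% up to 10 kb to 46.2% above 300 kb.

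In the EPDC lists, the mean number of summits at the 1737 genes with more was 10.3, against 9.25 (E11.5) and 15.0 (E17.5). For 1437 of them (82.7%) the EPDC mean was nearer to E11.5. At the 1427 genes with fewer summits, the EPDC mean lay between those of E11.5 (13.3) and E17.5 (8.17), and 803 (56.3%) were nearer to E11.5.

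Promoter strength was compared for the 14681 genes whose promoter was open in at least 3 libraries. The promoter score is the highest −log10 p of its peaks, divided by the library's summed −log10 p. By limma, 3714 genes (25.3%) had a higher and 1559 (10.6%) a lower score at E17.5, with a median log2 difference of 0.21 over all. Under quantile normalization the counts were 1968 and 2095. Both scalings called 1849 higher (12.6%) and 1273 lower (8.67%). All these counts include the gained and lost promoters, which pass the filter through a single stage, so that their direction was fixed. With a peak required in all 6 libraries, 4011 genes had a higher and 1168 a lower score by limma. Rank percentiles in place of the score turned the balance, with 916 higher and 2763 lower, and without E11.5 replicate 2 the score was higher at 2071 genes, without E11.5 replicate 3 at 2152, without E17.5 replicate 1 at 2437 and without E17.5 replicate 3 at 2320.

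The promoter of Xdh, xanthine dehydrogenase of purine breakdown, stood at percentiles of 20.5, 48.4 and 42.4 at E11.5 against 95.4, 96.8 and 96.5 (log2 difference of the score 3.68, SE 0.20, adjusted p = 4.73e-10). C1s1, a protease that starts the complement cascade, went from 0, 0 and 11.7 to 81.4, 87.2 and 85.2. Krt5, a keratin of basal epithelia, went from 0, 13.3 and 0 to 85.6, 85.5 and 78.3. The 3 promoters thus moved from weak or closed to the upper ranks in every E17.5 library. Adgrd1, an adhesion receptor, went from 9.35, 0 and 17.1 to 84.2, 90.1 and 89.8, and Ddo, D-aspartate oxidase, from 38.8, 41.1 and 38.7 to 88.7, 93.7 and 92.6 (log2 3.07, SE 0.18, adjusted p = 1.31e-09). Plet1 went from 12.4, 11.1 and 9.52 to 74.3, 81.1 and 82.4. Kcnk16, a potassium channel, and Cd244a, a receptor of natural killer cells, were closed in at least 2 E11.5 libraries and reached 61.7 to 80.7 and 50.4 to 62.6.

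Large drops in score were also found outside the 12 strongest lost promoters. Tekt3, a protein of cilia and flagella, went from percentiles of 73.6, 77.4 and 72.5 to 0, 2.86 and 0, and St6gal2, a sialyltransferase, from 75.8, 73.2 and 76.2 to 0, 6.56 and 0. At E17.5 both kept a peak in replicate 2 alone. Pde6c, a phosphodiesterase of cones, was uneven, with 89.1, 91.7 and 90.9 against 77.4, 0 and 0 (log2 -3.28, SE 0.64, adjusted p = 0.000702), and its call was lost both without the filter on promoters open in few libraries and with log2 fold enrichment in place of the score. Nos3, the endothelial nitric oxide synthase, went from 62.7, 71.0 and 71.5 to 0 in each library, while its surroundings held 17, 24 and 20 summits against 19, 19 and 17. Prss27, a serine protease, Stk32a, a kinase, and Jakmip2 were at 65.7 to 74.4 at E11.5 and closed at E17.5. For promoters closed in all libraries of a stage the fitted difference depends on the 1 added before the logarithm, so none is given.

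Gene lists were described by how many members were called under both scalings, against 11.3% with more and 9.29% with fewer summits over all tested genes. Counts by library totals alone, against 25.1% and 9.58%, are added as such. Among 30 tested genes of epicardial and mesothelial identity, 6 had more summits and 3 fewer (14 and 3 by library totals alone). Msln went from 5, 5 and 6 to 9, 12 and 11 (log2 1.21, SE 0.17, adjusted p = 5.06e-07) and Anxa8 from 3, 6 and 3 to 7, 8 and 8 (log2 1.20). Upk3b, a uroplakin of the mesothelial surface, went from 7, 9 and 11 to 11, 14 and 12 (log2 0.73), and Pdpn, the sorting antigen, from 10, 11 and 12 to 11, 18 and 16 (log2 0.69). Fewer summits lay at Isl1, a cardiac progenitor factor (5, 5 and 4 against 1, 2 and 3, log2 -0.84), and at Bnc2, a zinc finger protein (29, 37 and 38 against 19, 25 and 19, log2 -0.43). Wt1 itself had 23, 21 and 21 against 19, 29 and 25, a call that quantile normalization did not keep. Its promoter score fell by 0.45 on the log2 scale (adjusted p = 0.0159). The promoter of Krt18, a simple epithelial keratin, had a higher score (percentiles 56.0, 65.1 and 49.2 against 83.5, 84.8 and 81.5, log2 1.65).

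Genes for products of mature mesothelium had more summits at 5 and fewer at 1 of 21 (9 and 2 by library totals alone). C1ra, the partner of C1s, had 2, 3 and 3 against 6, 6 and 5 (log2 1.26, adjusted p = 4.15e-05), and Slpi, a secreted protease inhibitor, 7, 9 and 7 against 11, 12 and 13 (log2 0.90). The pair of hyaluronan synthases moved apart at the promoter. Has1 went from percentiles of 32.5, 39.4 and 40.3 to 62.0, 74.9 and 67.3 (log2 score 1.40), and Has2 from 58.1, 59.3 and 64.9 to 0, 1.41 and 0 (log2 score -2.58, SE 0.25, adjusted p = 4.04e-07). In the list of antigen presentation and interferon response, 10 of 20 promoters had a higher score under both scalings and 0 a lower one, against 12.6% and 8.67% over all genes. By the scaling to library totals alone these were 12 and 0. Of the 21 genes tested for summits, 10 had more and 1 fewer by library totals alone, and 2 had more and 1 fewer under both scalings. Among the blood and leukocyte markers 3 of 6 promoter scores were higher and 0 lower, and their part in this result was not tested. Examples were H2-K1, a classical class I molecule (86.2, 86.2 and 89.2 against 98.7, 98.1 and 98.0, log2 1.67), Ifit1, an interferon-induced antiviral protein (log2 2.18), and Cd74, the class II invariant chain (25.9, 29.9 and 28.3 against 64.1, 79.9 and 71.3, log2 1.91).

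Cell contacts and matrix followed. Of 25 genes of tight junctions and desmosomes, 5 had more summits and 0 fewer under both scalings, and 9 of 25 promoter scores were higher and 1 lower. Scaling to library totals alone gave 7 and 0, and 10 and 1. Ocln, occludin, had 6, 6 and 5 summits against 9, 9 and 9 (log2 0.91) and Cgn, cingulin, 9, 10 and 7 against 10, 15 and 14 (log2 0.83). Of 12 cadherins, Cdh1, which encodes E-cadherin, had more (10, 13 and 10 against 15, 15 and 20, log2 0.86, adjusted p = 2.03e-05), while Cdh22 (21, 20 and 22 against 6, 6 and 7, log2 -1.37), Cdh10 and Cdh4 had fewer. Of 24 collagens, 5 had more and 1 fewer (14 and 1 by library totals alone). Col3a1, a fibrillar collagen, had 7, 8 and 6 against 9, 10 and 11 (log2 0.77), and Col23a1, a transmembrane collagen, 31, 30 and 32 against 9, 15 and 13 (log2 -1.04). The promoters of Col1a2 (log2 score 1.42) and Col6a3 (1.73) had higher scores. Of 30 genes of basement membrane and integrins, 5 had more and 5 fewer (11 and 5 by library totals alone), among them Itgav (log2 0.79), the receptor subunit for RGD ligands, and Lama1 (log2 -0.96) and Itga4 (log2 -0.89), a laminin chain and the integrin subunit that binds VCAM1. Proteases of the matrix and their inhibitors had more at 6 and fewer at 2 of 22 (10 and 2 by library totals alone), with Timp2 at 16, 15 and 15 against 21, 26 and 23 (log2 0.87) and Adamts12 at 19, 27 and 29 against 13, 14 and 7 (log2 -0.86).

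Lists of immediate response, clock and antioxidant genes held no member with fewer summits. Of 15 AP-1 factors, 4 had more under both scalings (9 by total summits alone). Jund had 8, 8 and 8 against 15, 16 and 14 (log2 1.15, SE 0.15, adjusted p = 1.33e-07), Maff 7, 11 and 7 against 13, 18 and 15 (log2 1.14) and Fosb 14, 19 and 17 against 20, 28 and 22 (log2 0.75). Of 24 genes of glucocorticoid response and the clock, 4 had more (14 by total summits alone), with Arntl, the clock activator also named BMAL1, at 12, 12 and 11 against 16, 24 and 16 (log2 0.91), and Per1 (log2 0.53) and Fkbp5 (log2 0.52) following. Of 13 Krüppel-like factors it was 3, Klf11 (log2 1.04), Klf13 (log2 0.80) and Klf6 (log2 0.64), and of 19 genes of NRF2 and antioxidant defence 4, led by Gstm1 (log2 0.97) and Gsr (log2 0.79). By total summits alone, 4 Krüppel-like and 7 NRF2 and antioxidant genes had more. Transcription factors of the epithelial-to-mesenchymal transition had 6 of 10 promoter scores higher under both scalings and 0 lower. Zeb1 stood at 67.0, 78.6 and 59.6 against 79.2, 84.6 and 80.7 (log2 score 0.98), and Prrx1 at 28.2, 28.3 and 28.6 against 24.6, 74.6 and 64.1 (log2 score 1.18), with E17.5 replicate 1 at the level of E11.5. Zeb2 had a higher promoter score (0.70) but fewer summits, 24, 36 and 28 against 17, 20 and 13 (log2 -0.52). Among the 4 nuclear factor I genes, Nfia had more summits (log2 0.26, adjusted p = 0.00547), and the promoter score was higher at Nfix (0.60) and lower at Nfib (-0.55).

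Genes known for high activity in early embryos were next. Of 17 fetal timing genes, 4 had fewer and 0 more under both scalings, although 3 others had more by total summits alone. Lin28b, which holds back maturation of let-7 microRNAs, had 16, 19 and 19 against 5, 6 and 4 (log2 -1.48, SE 0.16, adjusted p = 2.01e-09). Plagl1, an imprinted zinc finger gene, had 8, 12 and 11 against 3, 6 and 5 (log2 -0.81), and Hmga2, an architectural chromatin protein, 27, 26 and 33 against 14, 23 and 15 (log2 -0.45). Sall4, a factor of pluripotent cells, had a lower promoter score (75.5, 75.9 and 71.5 against 30.5, 39.9 and 38.0, log2 -1.41). Of 23 cardiac progenitor factors, 3 had fewer summits, among them Tbx3 (11, 9 and 8 against 3, 4 and 4, log2 -0.95) and Isl1, and 1 had more, Meis2 (3 and 4 by library totals alone). Of 39 Hox genes, 6 had fewer and 0 more, all 6 in the Hoxd cluster, whose windows share summits. Hox promoter scores were higher at 7 and lower at 2 of 32 under both scalings.

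Members of signalling pathways moved in both directions. In the TGF-beta pathway, 5 of 19 genes had more summits and 0 fewer (9 and 0 by library totals alone), among them Ltbp3 (log2 0.87), Tgfbi (0.70), Tgfbr3 (0.63) and the ligand Tgfb2 (18, 22 and 21 against 19, 30 and 23, log2 0.50). The list's median of 0.17 was that of all genes. In the BMP pathway 2 of 28 had more and 4 fewer, a balance that library totals alone turned to 5 and 4. Bmp10 had 14, 15 and 14 against 3, 2 and 3 (log2 -1.96, SE 0.20, adjusted p = 7.44e-10) and Bmp5 11, 13 and 9 against 4, 4 and 3 (log2 -1.18). Among 22 FGF genes, the ligands Fgf7 (5, 8 and 11 against 3, 4 and 3, log2 -0.81) and Fgf10 (15, 17 and 13 against 7, 11 and 6, log2 -0.62) had fewer, and Fgf1 (log2 0.67) and Fgf2 (9, 14 and 12 against 15, 16 and 17, log2 0.74) had more. Of 6 PDGF genes, the ligands Pdgfc (11, 12 and 11 against 5, 6 and 4, log2 -0.84) and Pdgfd (16, 18 and 19 against 6, 11 and 7, log2 -0.85) had fewer and 0 had more under both scalings. By library totals alone the FGF list had 4 with more and 2 with fewer, the PDGF list 2 and 2, the Hedgehog list 3 and 2 and the retinoic acid list 5 and 3. Of 15 Hedgehog genes, fewer summits under both scalings lay at Shh (7, 9 and 8 against 0, 4 and 3, log2 -1.81) and Gli3 (log2 -0.32). Among 18 genes of the retinoic acid pathway, Crabp1, which binds retinoic acid in the cytosol, had 8, 9 and 8 against 2, 2 and 1 (log2 -1.78, adjusted p = 2.65e-07) and Rarb, a receptor, 28, 39 and 29 against 17, 19 and 17 (log2 -0.54), while Aldh1a1, which makes retinoic acid, had 10, 13 and 13 against 13, 18 and 16 (log2 0.65). Of 32 canonical Wnt genes, 3 had more and 2 fewer (9 and 2 by library totals alone), and the promoter of Sfrp5, a secreted Wnt inhibitor, went from 70.4, 76.2 and 72.2 to 18.1, 25.5 and 30.5 (log2 score -1.70).

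Guidance genes lost summits most often of the lists of at least 12 genes. Of 28 semaphorins and axon guidance genes, 11 had fewer summits and 4 more (11 and 6 by library totals alone). Dcc, the netrin receptor, had 18, 22 and 22 against 4, 5 and 4 (log2 -1.85, SE 0.15, adjusted p = 3.95e-12), Unc5c, another netrin receptor, 27, 35 and 33 against 11, 12 and 11 (log2 -1.15), and Robo1, a Slit receptor, 32, 42 and 36 against 11, 16 and 16 (log2 -1.05). More summits lay at Sema3b (12, 12 and 12 against 16, 14 and 18, log2 0.68) and Nrp1 (16, 19 and 18 against 17, 25 and 21, log2 0.51). These genes are long, with a median of 190 kb against 17.6 kb over all genes. Of the 21 above 100 kb, 10 had fewer summits, and of all 2238 tested genes above that length 598.

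Large families were counted in the same way. Of 288 solute carriers, 27 had more and 36 fewer summits, a balance that library totals alone turned to 62 and 38, and 13 of the 329 annotated ones lost their promoter peak, against 0 gained and beside 1.25% lost over all genes. Of 1087 olfactory receptors, 1053 had a closed promoter in all 6 libraries, and 2 were gained and 10 lost. Of 236 zinc finger genes named Zfp, 25 had more and 10 fewer (60 and 10 by library totals alone). Of 72 promoters of ribosomal proteins, 30 had a higher score by scaling to library totals and 13 by both, with 0 lower by either. Of 32 genes of DNA replication and the cell cycle, Cdk1 (log2 0.98) and Bub1 (log2 0.89) had more and 0 had fewer (5 and 0 by library totals alone). Over all tested genes 11.3% had more under both scalings.

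Markers of other cell types were read in the same libraries. Of 14 fibroblast markers, 7 had more summits and 0 fewer (10 and 0 by library totals alone), with Dpt at 5, 8 and 7 against 11, 12 and 12 (log2 1.07) and Dcn at 6, 5 and 4 against 6, 8 and 8 (log2 0.80). Their summed scaled summits went from 112 to 114 per library at E11.5 to 156 to 169 at E17.5, and 12 of their promoters were open in each E11.5 library and 13 in each E17.5 library, with Dpt closed throughout. Their promoter scores were higher at 3 and lower at 4 of 13 under both scalings. This list moves with the collagen and Postn results above, and its part in them was not tested. Of 17 cardiomyocyte markers, 5 had fewer and 0 more (5 and 3 by library totals alone), with Ttn at 11, 13 and 13 against 3, 3 and 3 (log2 -1.59) and Ryr2 at 23, 33 and 26 against 9, 9 and 10 (log2 -1.20). Their promoter scores did not follow, with 4 of 14 higher and 2 lower under both scalings, and their median percentile was 40.3 at E11.5 and 54.8 at the later stage. The smooth muscle and pericyte sums were 122 to 130 against 139 to 141, those of endothelium 165 to 173 against 183 to 190, of blood and leukocytes 103 to 111 against 119 to 135, and of Schwann and neural crest cells 42.4 to 45.9 against 38.5 to 43.0. The median log2 difference was 0.22 over the smooth muscle and 0.19 over the endothelial markers, near the 0.17 of all genes. Promoter scores were lower at 6 of 12 smooth muscle and 3 of 11 endothelial markers under both scalings, and higher at 0 of either. The 12 epicardial markers themselves went from 141 to 156 at E11.5 to 200 to 212 at E17.5, whereas their promoter scores were higher at 2 and lower at 3 of 12 under both scalings, with a median log2 difference of -0.23.

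**Figure D5:**
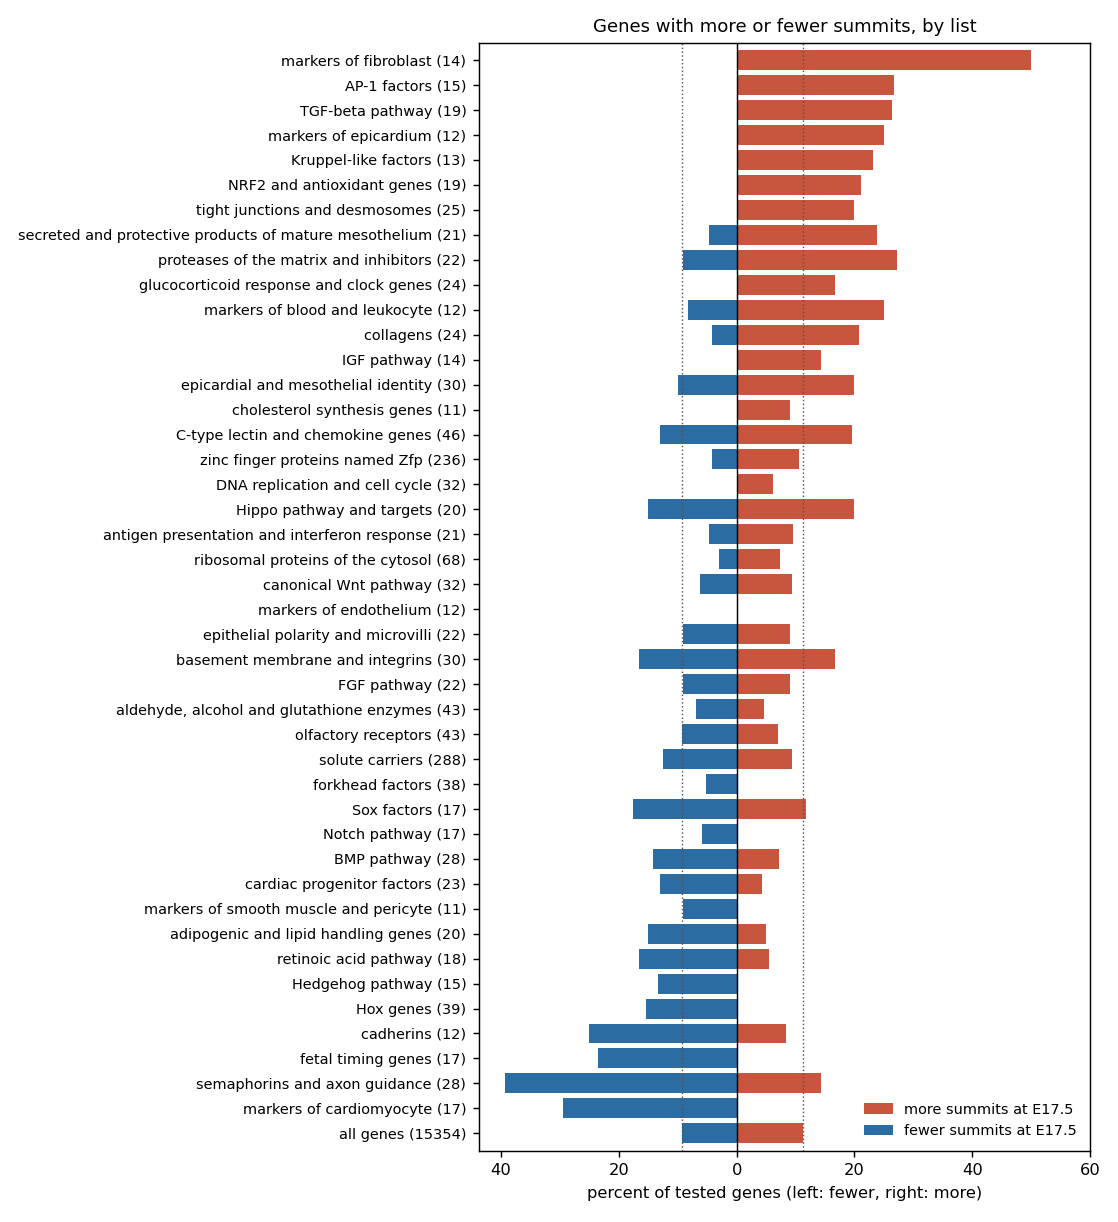
Percent of tested genes with more (red, to the right) or fewer (blue, to the left) summits at E17.5 under both scalings, for gene lists with at least 10 tested genes (number tested in brackets). Dotted lines give the shares over all 15354 genes, 11.3% and 9.29%; the guidance genes reach furthest to the left and the fibroblast markers furthest to the right.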

How the data were processed

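Chromatin accessibility was measured by bulk ATAC-seq in 10 sorted samples, of which 6 epicardial ones were compared and the EPDC lists served as reference. The authors processed the reads with nf-core atacseq 2.0 on mm10 and called peaks in each library with MACS2 2.2.9.1 at a q of 0.01 with sub-peak summits, per the labels and the study's methods. The deposited peak lists give, for each summit, a score of 10 times the −log10 q. They also hold, as deposited, the fold enrichment over local background and the −log10 p and −log10 q of the peak caller, none of them normalized between libraries. No read counts were used here, so depth is unknown.

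Only chromosomes 1 to 19 were used, with GENCODE M21 protein-coding genes. Summits were counted within 25 kb of the gene body, 0.5 was added, and libraries were scaled to the same total. Genes with a mean of at least 3 summits were tested with limma-trend (limma 3.58.1, R 4.3.3). Promoter scores were tested as log2 of the score plus 1 where at least 3 libraries had a promoter peak. P-values were adjusted by Benjamini-Hochberg at 0.05. Single values per library were compared by exact two-sided permutation tests. On simulated data, 47 to 50 of 50 genes changed by a log2 of 1 or -1 in summits were recovered. In the score it was 29 and 35 of 50. Recovery in the measured libraries, where neighbouring genes often share summits, was not tested.

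The compared genes and gene lists were chosen with earlier results of these data known, and calling a gene only where quantile normalization gave the same call was chosen after seeing the data. The text names the 12 genes with the largest summit differences in each direction that did not overlap between stages and had a scaled mean of at least 6 summits in the higher stage, the 12 strongest gained and lost promoters, the 8 largest score differences outside these, and members of lists. Predicted and clone-named genes were not named, and of overlapping windows 1 gene was. List members other than those with the largest difference were chosen after their values were seen. Motifs were searched as exact letters. MEF2, SOX, NRF1, E-box and glucocorticoid receptor motifs were searched as well. Some genes that these rules would name are not reported here.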

Additional observations from a re-analysis of the deposited data

How the results depend on the processing

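Taking equally many top summits from each library gave 134 gained promoters, 1794 genes with more and 891 with fewer summits, 8 lists more often lower, and a difference in open promoters of -130 (exact permutation p = 0.2). Without scaling, 198 genes had more and 1062 fewer summits, 5 lists were more often higher and 24 more often lower. Quantile normalization gave 1737 genes with more summits, 1968 with a higher score, and 18 lists each way for summits and 17 lower for the score. Summed scores in place of summits gave 2241 genes with fewer and 11 lists more often lower, and turned Ctla4 to -0.10. A flank of 10 kb gave 9 lists more often lower. Log2 fold enrichment gave 1596 higher and 785 lower scores, no filter 1832 and 942 with 11 lists lower, and rank percentiles 916 and 2763 with 6 lists higher and 30 lower. The causes were not tested.

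Leaving out 1 library gave 78 to 125 gained and 274 to 329 lost promoters, counts that can only stay or rise when a library is left out. It gave 2900 to 3612 genes with more and 1194 to 1430 with fewer summits, and 2071 to 4324 higher and 1239 to 1417 lower scores. Higher scores numbered 2071 without E11.5 replicate 2, 2152 without E11.5 replicate 3, 2437 without E17.5 replicate 1 and 2320 without E17.5 replicate 3. Differences in open promoters were -420 to -249. Lists (of 40) were more often higher for 28 to 31 and lower for 5 to 9 in summits, and 25 to 32 and 6 to 12 in the score. Same-numbered libraries did not deviate together (correlations -0.008, 0.008 and -0.035), and with the replicate number as a block 3692 genes had more and 1392 fewer summits, 4377 a higher and 1563 a lower score. Of 950 alternative values of named results, 914 kept their direction and call. Named gained and lost promoters could not lose their call when 1 library was left out. The other named genes were picked for large differences in these same libraries, so this share is not a measure of robustness. Depth is unknown, and exact permutation tests of 3 against 3 libraries cannot go below p = 0.1.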
